A study of Drosophila melanogaster with 24 samples.

Results

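The antimicrobial peptides of Drosophila melanogaster were followed in Manf mutant, rescued and overexpressing animals and in wild type animals. The 10 listed genes are AttA, AttC, CecA1, CecB, CecC, DptB, Drs, Dro, Def and Mtk, and they were looked up by old or current symbol among the named probes of the Agilent array. CecB, DptB, Drs and Mtk have 2 probes each and Def has 3, which makes 11 probes for 5 genes, out of 45220 probes and 12799 genes with a named probe. AttA, AttC, CecA1, CecC and Dro were not analysed here. By the gene annotation of assembly Release 6 plus ISO1 MT, Drs is on arm 3L, CecB on 3R, and DptB, Def and Mtk on 2R. Every value below is a log2 normalised intensity, so that a difference of 1 is a factor of 2, and levels of different probes are not compared with each other.

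Manf codes for a small secreted neurotrophic factor that also resides in the endoplasmic reticulum. Maternal and zygotic Manf D96 mutant embryos (mz mutant) have neither the mother's nor their own Manf product. They were collected at late stage 17, 21 to 24 h after egg laying, from mothers with a mutant germ line. Paternally rescued embryos come from the same kind of mother and carry 1 wild type copy from the father, and wild type embryos were of the same stage, with tracheae filling with air. Zygotic Manf D96 mutant larvae retain a maternal supply of Manf at first. Mutant larvae 2 and 4 were of 29 to 50 h and 31 to 50 h, and mutant larvae 65 and 66 of 30 to 44 h. Overexpressing larvae of 29 to 44 h carry UAS-Manf driven by 69B-GAL4, a driver of broad ectopic expression. By the study's mapping this driver was active in neither the fat body nor the gastric caeca. Wild type larvae 1 and 2 were 29 to 44 h old, and wild type larvae 63 and 65 were 30 to 45 h old. Whole animals were used in every group, so fewer cells of a type and less RNA per cell cannot be told apart. All animals were of a w- background, and the wild type carries no further change. Each group holds 4 samples, except that overexpressing larvae are represented by larvae 2 and 3, which leaves 22 of 24 samples. The methods describe fewer independent sets of a genotype than the labels list samples, and which samples were collected separately is not given in the sources used here, so that each p-value reflects only how far these samples scatter, which may in part be technical.

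Antimicrobial peptides are short, secreted, cationic proteins that the fat body, which is the insect counterpart of the liver, releases into the haemolymph after infection, and that epithelia make locally. In Drosophila their genes are switched on by the Toll pathway through the NF-kB factors Dif and dl, and by the Imd pathway through the NF-kB factor Rel. Drs (Drosomycin, antifungal) is the usual readout of Toll, and DptB (Diptericin B, active against Gram-negative bacteria) and the cecropins such as CecB are usual readouts of Imd. Mtk (Metchnikowin, antifungal) and Def (Defensin, active against Gram-positive bacteria) respond to both. Drs and Mtk lead the account below, followed by CecB, DptB and Def.

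The 22 samples correlated with each other at 0.886 to 0.994 over all probes, whereas overexpressing larvae 69 and 70 correlated with them at 0.370 to 0.442 and were left out. Manf itself did not follow every label. The library labelled mz mutant embryo 1 read 11.29 at the brighter Manf probe, inside the 11.10 to 11.48 of wild type embryos, while the other mz mutant embryos lay between 9.14 and 10.12. The library labelled mutant larva 66 read 13.50, between wild type larvae 63 and 65 at 13.18 and 13.64, whereas overexpressing larvae 2 and 3 read 14.23 and 14.40. Mutant larva 65 read 12.48, below wild type larvae 63 and 65 but above wild type larvae 1 and 2 at 11.65 and 11.59. Mutant larvae 2 and 4 read 10.67 and 10.46. Mean Manf was 11.78 ± 1.47 (SD) in mutant and 12.52 ± 1.05 in wild type larvae. All wild type larvae were labelled with Cy3 and no mutant or overexpressing larva was, so that the dye cannot be told apart from the genotype in larvae. Of the wild type embryos only embryo 1 shares a dye (Cy5) with mz mutant embryos, and of the rescued embryos embryo 1 (Cy5) and embryos 66 and 84 (Alexa488) do. Sample numbers form a low series (1 to 4) and a high series (63 to 88), and differences within each series stand beside the main results.

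Mtk separated mz mutant embryos from both other embryo groups. At its brighter probe mz mutant embryos 1, 4, 87 and 88 read 11.23, 11.62, 11.12 and 10.75. Paternally rescued embryos 1, 2, 66 and 84 read 8.96, 9.32, 9.32 and 9.05, and wild type embryos 1, 2, 82 and 83 read 9.31, 9.06, 8.85 and 8.81. Every mz mutant embryo therefore lay above every rescued and every wild type embryo, and the rescued and wild type ranges overlapped. Against wild type, Mtk in these embryos rose by 2.18 ± 0.20 on the log2 scale (standard error), that is 4.52-fold (limma over all genes with Benjamini-Hochberg adjustment, adjusted p = 1.48e-06). It rose by 2.02 ± 0.20 against rescued embryos (adjusted p = 4.11e-06), a comparison that shares the mz mutant samples with the one before. Its other probe gave 2.13 against wild type (limma over all probes, adjusted p = 1.68e-06) and 2.15 against rescued embryos (adjusted p = 2.20e-06). Rescued embryos differed from wild type by 0.16 (95% interval -0.27 to 0.58). The difference between mz mutant and wild type embryos was 2.25 within the low and 2.11 within the high series, and 1.63 among the samples in Cy5. With overexpressing larvae 69 and 70 in the fit the same difference had an adjusted p of 0.0508.

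In larvae Mtk read higher in mutants and under overexpression than in wild type. Mutant larvae 2, 4, 65 and 66 read 11.92, 11.97, 11.61 and 11.04, overexpressing larvae 2 and 3 read 12.09 and 11.68, and wild type larvae 1, 2, 63 and 65 read 10.48, 10.59, 10.87 and 10.63. Neither mutant nor overexpressing larvae overlapped wild type, and they overlapped each other. Mtk rose in mutant larvae by 0.99 ± 0.20 (1.99-fold, limma adjusted p = 0.00529) and its other probe by 0.92 (adjusted p = 0.00873). The difference was 1.41 in the low and 0.58 in the high series, and in the high series alone the limma adjusted p was 0.217. Mutant larvae of the low series reached 50 h and wild type 44 h, while those of the high series ended at 44 and 45 h. Whether age had a part in this was not tested. The call was lost, with adjusted p of 0.0136 to 0.024, when wild type larva 1, 2 or 65 or mutant larva 2, 4 or 65 was left out, and with dye in the model (0.83, adjusted p = 0.271), where the Cy3 term rests on embryos alone. Overexpressing larvae gave 1.24 ± 0.25 (2.36-fold, adjusted p = 0.0111), just short of the threshold of 0.01, whereas the other Mtk probe rose by 1.36 (adjusted p = 0.00407). Mutant and overexpressing larvae differed by -0.25 (95% interval -0.77 to 0.27).

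Drs was among the brightest features of the mz mutant arrays. Mz mutant embryos 1, 4, 87 and 88 read 15.00, 15.08, 14.96 and 14.84 at its brighter probe, which placed it between percentiles 98.6 and 99.5 of the array. Paternally rescued embryos 1, 2, 66 and 84 read 12.54, 15.10, 12.64 and 12.74, and wild type embryos 1, 2, 82 and 83 read 14.99, 12.35, 11.56 and 11.16. Rescued embryo 2 and wild type embryo 1 thus reached the mz mutant level, while the others of their groups lay between 11.16 and 12.74. The difference between mz mutant and wild type embryos, 2.46 ± 0.71 (5.49-fold), missed the threshold (limma adjusted p = 0.0262), as did the other probe with 2.65 (adjusted p = 0.0190), although there the groups did not overlap. Within the series it was 1.37 (low) and 3.54 (high), and it passed with number series as a block (adjusted p = 0.00305). Without wild type embryo 1 the difference was 3.28 (adjusted p = 0.00156). Against rescued embryos it was 1.72 ± 0.71 (adjusted p = 0.136), and rescued differed from wild type embryos by 0.74 (95% interval -0.75 to 2.23). The only wild type embryo in Cy5 is embryo 1, and within that dye mz mutant embryos differed from it by -0.092, and by 0.42 at the second probe. From rescued embryos they differed by 2.35 in Alexa488 and 2.36 in Cy5. Rescued embryo 2, at the mz mutant level, was labelled with Cy3 and enters neither value. Both values also set samples of different number series against each other.

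Mutant larvae 2, 4, 65 and 66 read 14.71, 15.08, 13.72 and 13.43 for Drs, overexpressing larvae 2 and 3 read 12.47 and 13.07, and wild type larvae 1, 2, 63 and 65 read 12.27, 12.66, 10.61 and 10.82. All mutant larvae lay above all overexpressing and wild type larvae. Against overexpressing larvae, with 2 samples, the difference of 1.46 ± 0.87 did not pass the threshold (limma adjusted p = 0.323). Among the samples in Cy5 it was 0.80, and 0.46 at the second probe. In mutant and in wild type larvae the low series read higher than the high series, and within the series mutant larvae exceeded wild type by 2.43 and 2.86. Over both series the difference was 2.65 ± 0.71 (6.26-fold, limma adjusted p = 0.0324), which did not pass the threshold. It passed in a fit with number series as a block (adjusted p = 0.00302). Overexpressing larvae differed from wild type by 1.18 ± 0.87 (adjusted p = 0.588), and by 0.31 within the low series to which both belong. Wild type larvae and wild type embryos could not be told apart for Drs (-0.92, 95% interval -2.41 to 0.56).

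**Figure D1:**
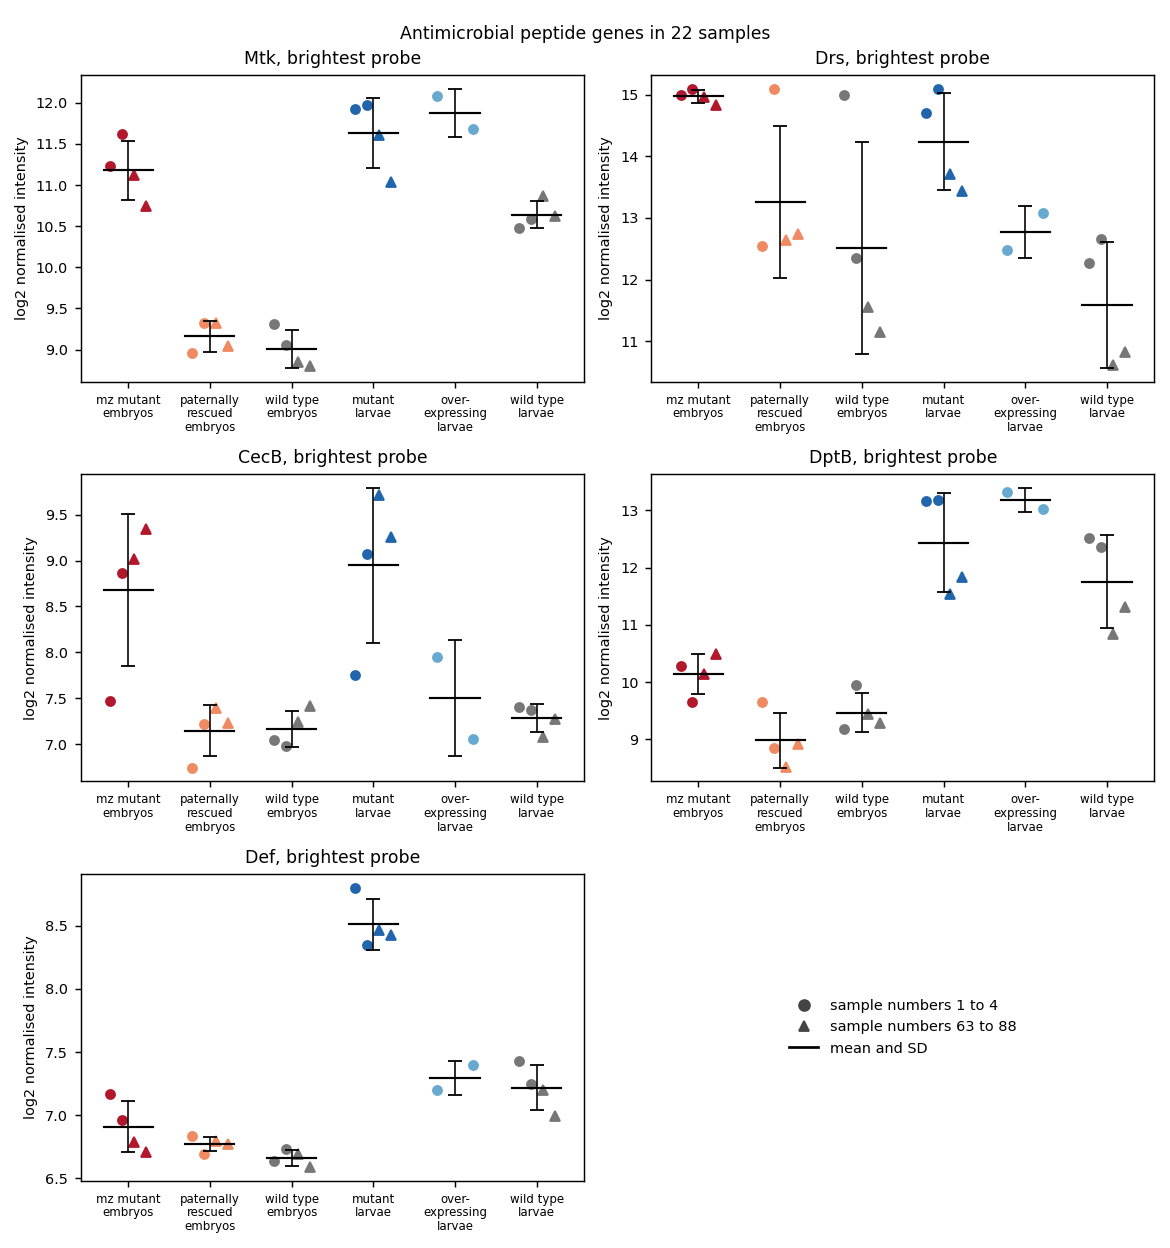
Log2 normalised intensity of the brightest probe of Mtk, Drs, CecB, DptB and Def in 22 samples of 6 groups, with a vertical scale of its own for each gene. Circles are sample numbers 1 to 4, triangles 63 to 88, long lines the group mean and bars the SD, and the 4 mz mutant embryos lie above all rescued and wild type embryos for Mtk while the 4 mutant larvae stand alone for Def.

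CecB read highest in the mutants of both stages. Mz mutant embryos 1, 4, 87 and 88 read 7.47, 8.87, 9.02 and 9.34 at its brighter probe, rescued embryos 1, 2, 66 and 84 read 6.74, 7.22, 7.40 and 7.23, and wild type embryos 1, 2, 82 and 83 read 7.04, 6.98, 7.24 and 7.41. Mutant larvae 2, 4, 65 and 66 read 7.75, 9.07, 9.71 and 9.26, overexpressing larvae 2 and 3 read 7.95 and 7.06, and wild type larvae 1, 2, 63 and 65 read 7.41, 7.38, 7.08 and 7.28. In the rescued and both wild type groups it lay between percentiles 12 and 34.3 of the array. In both stages 1 mutant sample, the library labelled mz mutant embryo 1 and mutant larva 2, stayed near the wild type level, yet above every wild type animal of its stage.

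In the fit of group means the CecB differences lay close to the threshold. Mz mutant embryos exceeded wild type by 1.51 ± 0.37 (2.84-fold, limma adjusted p = 0.0105) and rescued embryos by 1.53 ± 0.37 (adjusted p = 0.0132). Mutant larvae exceeded wild type larvae by 1.66 ± 0.37 (3.17-fold, adjusted p = 0.0100082), and at the second probe CecB rose in mutant larvae by 1.28 ± 0.27 (adjusted p = 0.00761). The second probe gave 1.13 (adjusted p = 0.01005) in mz mutant against wild type embryos and 1.07 (adjusted p = 0.0194) against rescued embryos. Against wild type the difference was 1.16 in the low and 1.85 in the high series in embryos, and 1.02 and 2.31 in larvae. With number series as a block all 3 comparisons passed (adjusted p = 0.00348, 0.00417 and 0.00287). Without the library labelled mz mutant embryo 1 the embryo difference was 1.91 (adjusted p = 3.77e-04), and without mutant larva 2 the larval one was 2.06 (adjusted p = 9.99e-04), both then past the threshold. Rescued and wild type embryos differed by -0.020 (95% interval -0.80 to 0.76), and overexpressing and wild type larvae by 0.22 (-0.74 to 1.17). The cecropin genes are close copies of each other, and whether these probes also bind RNA of the other copies was not tested.

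DptB was higher in larvae than in embryos. Wild type larvae 1, 2, 63 and 65 read 12.51, 12.36, 10.84 and 11.31 at its brighter probe, and wild type embryos 1, 2, 82 and 83 read 9.17, 9.96, 9.44 and 9.29. It rose in wild type larvae against wild type embryos by 2.29 ± 0.40 (4.89-fold, limma adjusted p = 1.37e-04) and by 2.62 at the other probe (adjusted p = 3.46e-07), with 2.87 in the low and 1.71 in the high series. Mutant larvae 2, 4, 65 and 66 read 13.17, 13.19, 11.55 and 11.84, and overexpressing larvae 2 and 3 read 13.33 and 13.03. Within wild type and mutant larvae alike, the low series was the higher one. Mutant larvae differed from wild type by 0.68 ± 0.40 (adjusted p = 0.453). Overexpressing larvae differed from wild type by 1.43 ± 0.48 (adjusted p = 0.157), and by 0.74 within the low series. The other probe gave 1.31 ± 0.32 (limma over all probes, adjusted p = 0.0370), and 0.88 within the low series. At both probes overexpressing larvae 2 and 3 lay above all wild type larvae, as they did at 17.7% of all probes.

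In embryos the DptB values of mz mutants 1, 4, 87 and 88 were 10.27, 9.66, 10.15 and 10.50, and those of rescued embryos 1, 2, 66 and 84 were 9.65, 8.84, 8.52 and 8.92. At this brighter probe the lowest mz mutant embryo was just above the highest rescued one, and the mz mutant and wild type ranges overlapped. Mz mutant embryos differed from rescued ones by 1.16 ± 0.40 (adjusted p = 0.0665), which was 0.72 in the low and 1.60 in the high series, and at the second probe DptB rose by 1.18 ± 0.26 (2.27-fold, limma over all probes, adjusted p = 0.00888). Against wild type embryos the brighter probe gave 0.68 ± 0.40 (adjusted p = 0.31). The second probe gave 0.79 ± 0.26 there (limma over all probes, adjusted p = 0.0664), without overlap but short of the threshold. At the brighter probe rescued embryos read lower than wild type by a difference of -0.48 (95% interval -1.31 to 0.35), which did not pass the threshold either. The second probe gave -0.40 (95% interval -0.94 to 0.14), with all rescued below all wild type embryos but not past the threshold.

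Def separated the mutant larvae from all other groups. At the brightest probe mutant larvae 2, 4, 65 and 66 read 8.80, 8.35, 8.46 and 8.43, overexpressing larvae 2 and 3 read 7.20 and 7.39, and wild type larvae 1, 2, 63 and 65 read 7.43, 7.25, 7.20 and 6.99. Mutant larvae stood above every other sample, and overexpressing and wild type larvae overlapped. Def rose in mutant larvae by 1.29 ± 0.12 against wild type (2.45-fold, limma adjusted p = 2.63e-06) and by 1.21 ± 0.15 against overexpressing larvae (adjusted p = 4.62e-05). Within the low and the high series the difference from wild type was 1.24 and 1.35, and among the Cy5 samples mutant exceeded overexpressing larvae by 1.15.

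Embryos showed no such difference in Def. Mz mutant embryos 1, 4, 87 and 88 read 7.17, 6.96, 6.79 and 6.71, rescued embryos 1, 2, 66 and 84 read 6.83, 6.70, 6.79 and 6.77, and wild type embryos 1, 2, 82 and 83 read 6.64, 6.74, 6.69 and 6.59. These overlap, and most lie below the first quartile of the arrays, which was 7.03 to 7.06. Mz mutant embryos differed from wild type by 0.25 (95% interval -0.0091 to 0.50). The interaction of mutation and stage, which is the larval minus the embryonic mutant effect, was 1.05 ± 0.17 for Def (limma adjusted p = 0.00176). The other 2 probes gave interactions of 0.33 (adjusted p = 0.689) and 0.066, neither past the threshold, and their mean with the first 0.48 (adjusted p = 0.045). The call was also lost within the low series (0.86, adjusted p = 0.191) and over all 24 samples (adjusted p = 0.0905).

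The 3 Def probes disagreed in size. The second probe read 7.76, 7.50, 7.23 and 7.23 in mutant larvae, 7.11 and 6.97 in overexpressing larvae and 7.13, 7.04, 6.78 and 6.81 in wild type larvae. Its difference between mutant and wild type larvae was 0.49 ± 0.14 (limma over all probes, adjusted p = 0.0471), without overlap but short of the threshold. The third probe stayed between percentiles 1.49 and 18.9 of the array in all groups and gave 0.11 (95% interval -0.11 to 0.33).

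**Figure D2:**
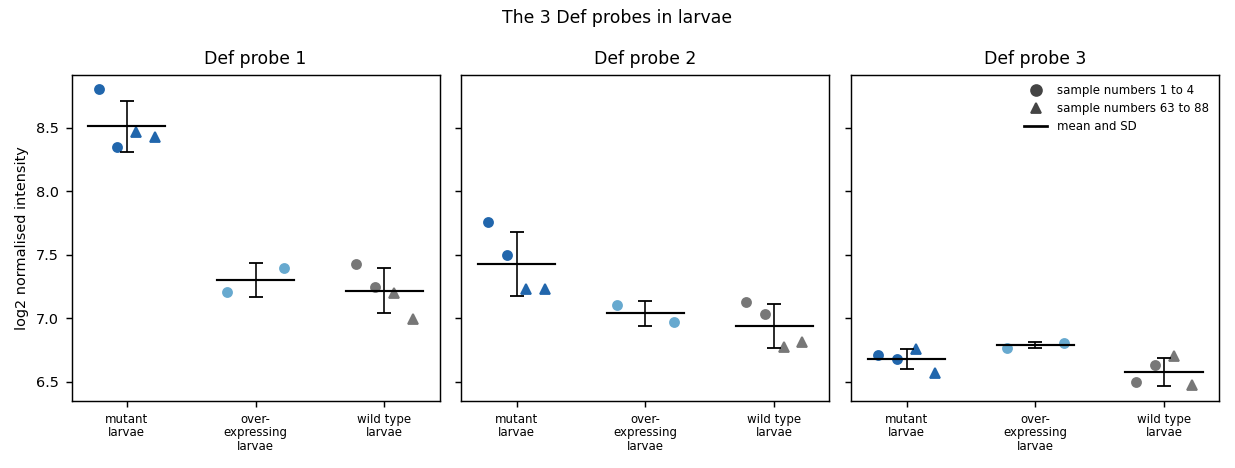
Log2 normalised intensity of the 3 Def probes, ordered by brightness, in mutant, overexpressing and wild type larvae, on a shared vertical scale. Points are samples, long lines means and bars SD, and the mutant larvae are at 8.35 to 8.80 on the first probe, 7.23 to 7.76 on the second and within the range of the others on the third.

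Each gene had an order of its own across the groups. Mean Mtk levels fell in the order overexpressing larvae (11.88 ± 0.29, SD, n = 2), mutant larvae (11.64 ± 0.43, n = 4), mz mutant embryos (11.18 ± 0.36), wild type larvae (10.64 ± 0.16), rescued embryos (9.16 ± 0.19) and wild type embryos (9.01 ± 0.23). Of these neighbours only wild type larvae and rescued embryos did not overlap. DptB had its one gap between wild type larvae (11.75 ± 0.81) and mz mutant embryos (10.14 ± 0.36), and Def between mutant larvae (8.51 ± 0.20) and overexpressing larvae (7.30 ± 0.13). For Drs, which ran from 14.97 ± 0.10 in mz mutant embryos to 11.59 ± 1.02 in wild type larvae, and for CecB, which ran from 8.95 ± 0.84 in mutant larvae to 7.15 ± 0.28 in rescued embryos, all neighbours overlapped. The spread of Drs was 0.10 among mz mutant embryos and 1.72 among wild type embryos. The mz mutant readings, 14.84 to 15.08, lie close to the highest value of an array, which was 14.75 to 15.56. Whether the top of the scale limits their spread or the fold change was not tested.

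Counted by the brightest probe, 1 of 5 antimicrobial peptide genes (Mtk) was called higher in mz mutant than in wild type embryos, where 3.8% of all genes were called higher. In mz mutant against rescued embryos it was again 1 of 5 (Mtk), beside 2.14% of all genes, and 0 of 5 in rescued against wild type embryos, beside 0.164%. In mutant against wild type larvae 2 of 5 (Mtk and Def) were called higher, beside 1.56% of all genes. In overexpressing against wild type larvae 0 of 5 were, beside 0.43%. In wild type larvae against wild type embryos 3 of 5 (DptB, Mtk and Def) were called higher, beside 13.8%. The interaction was called for 1 of 5 (Def), beside 0.57% of all genes called with a positive sign, and mutant against overexpressing larvae for 1 of 5 (Def), beside 1.91%. No member was called lower in any of these 8 comparisons. Counted by probe, 2 of 11 were called higher in mz mutant against wild type embryos (2.57% of all probes), 3 against rescued embryos (1.47%), 0 in rescued against wild type embryos (0.128%), 4 in mutant against wild type larvae (1.05%), 1 in overexpressing against wild type larvae (0.44%), 5 in wild type larvae against wild type embryos (8.57%), and 1 each in the interaction (0.281%) and in mutant against overexpressing larvae (1.24%). Where limma called 0 of 5, the unadjusted p was under 0.05 for 2 genes, Mtk and DptB, in overexpressing larvae, and for none in rescued embryos.

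All 11 probes had a positive difference in mz mutant against wild type embryos and in mutant against wild type larvae. The groups did not overlap at 6 probes in the embryos, beside 5.27% of all probes that were likewise higher without overlap, and at 8 in the larvae, beside 6.42%. In mz mutant against rescued embryos 6 probes were higher without overlap, beside 3.37%, in wild type larvae against wild type embryos 5, beside 14.1%, and in mutant against overexpressing larvae 5, beside 17.4%. In overexpressing against wild type larvae, with 2 samples on 1 side, 6 probes did not overlap, beside 17.7%, and in rescued against wild type embryos 0 were higher without overlap, beside 1.88%. The median log2 fold change of the 5 genes was 1.51 in mz mutant against wild type embryos, -0.052 over all genes. It was 1.29 in mutant against wild type larvae (-0.017 over all genes), 1.18 in overexpressing against wild type larvae (-0.0083) and 0.11 in rescued against wild type embryos (0.035).

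**Figure D3:**
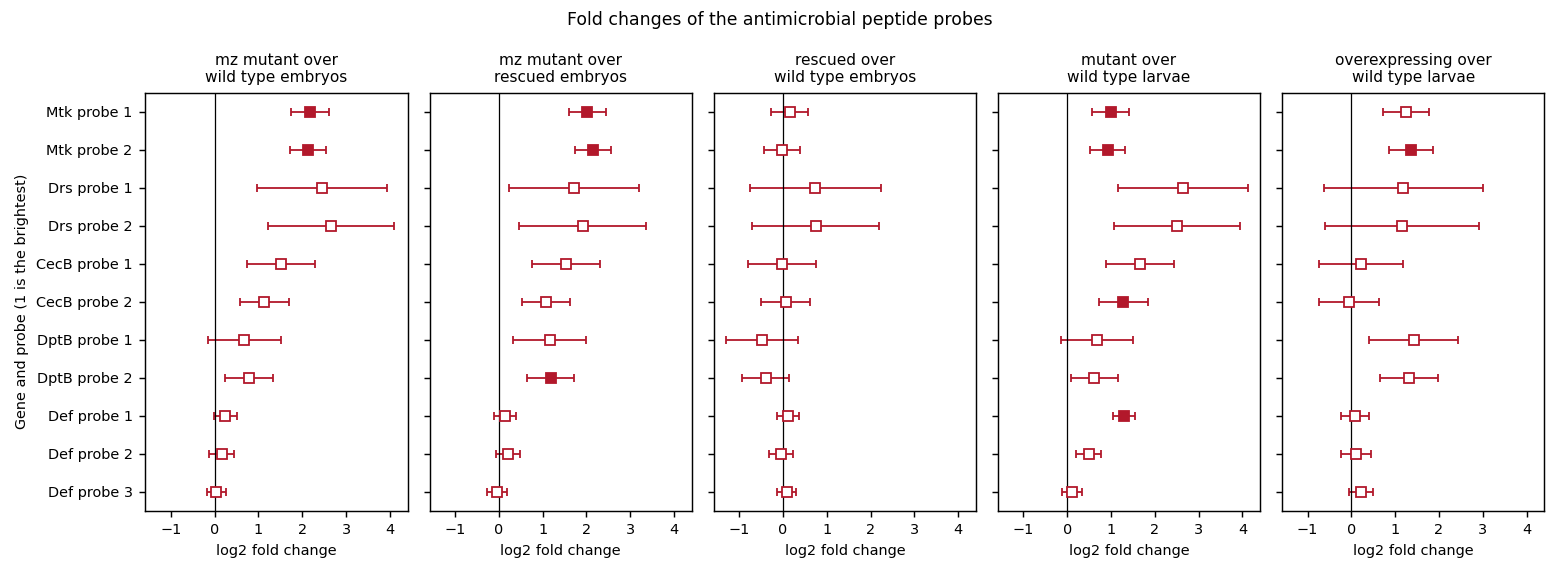
Log2 fold changes of the 11 antimicrobial peptide probes in 5 comparisons, with probe 1 the brightest of a gene. Squares are limma estimates, bars their 95% intervals, and filled squares passed an adjusted p of 0.01, which both Mtk probes did in mz mutant embryos against wild type and rescued embryos and in mutant larvae, and no probe did in rescued embryos.

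Whether the mutation acted differently at the 2 stages was tested by the interaction. The mutant effect on Mtk was 0.99 in larvae and 2.18 in embryos, and the interaction was -1.18 ± 0.29 (limma adjusted p = 0.0273), with -1.21 at the other probe (adjusted p = 0.0266), both short of the threshold. Wild type larvae already had 3.11-fold more Mtk than wild type embryos (1.64 ± 0.20, adjusted p = 3.39e-06). For Drs (0.19, 95% interval -1.91 to 2.29), CecB (0.16, -0.95 to 1.26) and DptB (0.0023, -1.17 to 1.17) the interactions had wide intervals.

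Several other immune effector genes rose in mz mutant embryos. Of 31 listed, which cover further antimicrobial peptides, Bomanins, stress peptides and the iron carrier Tsf1, 21 had a named probe, and 9 were called higher, beside 3.8% of all genes, and 0 lower, with a median of 1.94. Their number was 3 with dye in the model, 4 over all 24 samples and 0 in the low series alone. BomT2, a Bomanin (short secreted peptides that act downstream of Toll), rose by 4.35 ± 0.47 (20.4-fold, limma adjusted p = 8.09e-06). Listericin, an antibacterial peptide, rose by 3.85 ± 0.65 (adjusted p = 6.60e-04). BomS4 rose by 3.08 ± 0.42 (adjusted p = 6.96e-05), and BomT3 by 2.94 ± 0.70 (adjusted p = 0.00874). In mutant larvae 1 of the 21 was called, BomT2 with 2.37 ± 0.47 (adjusted p = 0.00427), beside 1.56% of all genes, and the median was 0.57. This count was 0 with dye in the model, over all 24 samples, in the low series alone and without wild type larva 1, 63 or 65 or mutant larva 2 or 4, and 2 without wild type embryo 1 or the library labelled mutant larva 66. The interaction was called for 4 of the 21, all with the larval effect below the embryonic one, as for 0.844% of all genes. In overexpressing larvae and in rescued embryos limma called 0 of 21 against wild type, beside 0.43% and 0.164% of all genes called higher. The unadjusted p was under 0.05 for 3 of the effector genes in overexpressing larvae and 0 in rescued embryos. These lists were put together with earlier results of these arrays known.

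Genes of the Toll pathway were called in mz mutant embryos and not in mutant larvae. The pathway runs from extracellular recognition proteins and proteases through the ligand spz to Dif and dl. Of 17 measured of 21 listed, 6 were called higher, beside 3.8% of all genes, and 0 lower in mz mutant against wild type embryos (median 0.93). In mutant against wild type larvae limma called 0 (median 0.13), beside 1.56% of all genes called higher, and 1 had an unadjusted p under 0.05. The embryo count was 3 with dye in the model or with stages fitted apart, and 1 in the low series alone or over all 24 samples. The ligand spz rose in mz mutant embryos by 2.67 ± 0.25 (6.35-fold, limma adjusted p = 1.51e-06), the protease psh by 1.68 ± 0.24 (adjusted p = 1.36e-04), the adaptor protein gene Pli by 1.34 ± 0.24 (adjusted p = 9.46e-04) and SPE, the protease that cleaves spz, by 1.22 ± 0.25 (adjusted p = 0.00316). The receptor Tl gave 1.08 (adjusted p = 0.015), the factors dl and Dif 0.93 (adjusted p = 0.012) and 0.73 (adjusted p = 0.031), and the inhibitor cact 0.62 (adjusted p = 0.374), none of them past the threshold. In mutant larvae spz gave 0.33, Tl 0.13, dl 0.44, Dif 0.36 and cact -0.32. The interaction was called for 3 of the 17, spz, psh and pll, all 3 with the larval effect below the embryonic one, as for 0.844% of all genes.

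Genes of the Imd pathway lead from peptidoglycan receptors to Rel. Of 22 measured of 26 listed, 3 were called higher, beside 3.8% of all genes, and 0 lower in mz mutant against wild type embryos (median 0.084). They were pirk, an inhibitor of the pathway, with 2.28 ± 0.49 (4.84-fold, limma adjusted p = 0.00392), the inhibitory receptor gene PGRP-LF with 1.16 ± 0.26 (adjusted p = 0.00609) and the kinase subunit gene key with 1.00 ± 0.24 (adjusted p = 0.00985). Rel gave 0.79 ± 0.34 (adjusted p = 0.148), and PGRP-LB, an amidase that degrades peptidoglycan, gave -0.90 ± 0.29 (adjusted p = 0.0494). The count of 3 was 0 with dye in the model, over all 24 samples, in the low series alone and without wild type embryo 2 or 82 or mz mutant embryo 4, and 1 with stages fitted apart and without wild type embryo 1 or 83 or mz mutant embryo 88. In mutant larvae only PGRP-LF of the 22 was called, with 1.28 ± 0.26 (limma adjusted p = 0.0056), beside 1.56% of all genes called higher. In the same larvae pirk gave 1.03 (adjusted p = 0.301), Rel 0.63 (adjusted p = 0.41) and PGRP-LB 0.036. The median in mutant larvae was 0.13. The larval count was 0 with dye in the model, with the mean of a gene's probes, with stages fitted apart, over all 24 samples, in the low series alone and without wild type larva 2, 63 or 65 or mutant larva 2 or 4, and 2 without rescued embryo 1.

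**Figure D4:**
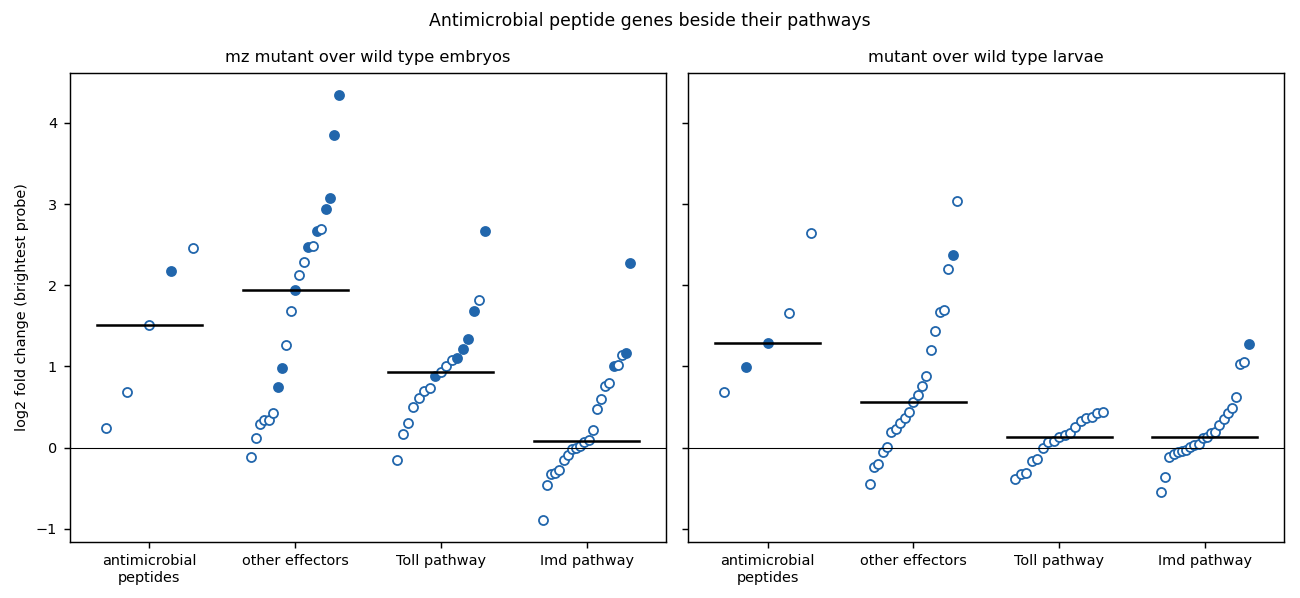
Log2 fold changes (brightest probe) of the 5 measured antimicrobial peptide genes and of the measured genes of 3 lists, in mz mutant over wild type embryos and in mutant over wild type larvae. Each point is a gene, filled where it passed an adjusted p of 0.01, and lines are medians, which for the Toll pathway were 0.93 in embryos and 0.13 in larvae.

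Markers of cell types that make these peptides were read beside them. In mz mutant embryos and mutant larvae against wild type, 3.8% and 1.56% of all genes were called higher. Of 9 listed fat body markers 6 were measured, and limma called 0 of these in both, with 2 and 0 at an unadjusted p under 0.05. The log2 of their summed intensity ranged from 14.89 to 15.79 in mz mutant against 15.55 to 15.88 in wild type embryos, and from 15.76 to 15.91 in mutant against 15.74 to 16.09 in wild type larvae. In mz mutant and wild type embryos mean Fbp1, Fbp2 and Lsp2 were 7.02 to 8.06, low on the arrays (first quartile 7.03 to 7.06). This limits what these markers show of the fat body. Of 11 haemocyte (blood cell) markers Hml rose by 1.85 (limma adjusted p = 1.64e-05) and eater fell by 0.91 (adjusted p = 6.96e-05) in mz mutant embryos, with lz also higher. In mutant larvae Hml rose by 1.41 (adjusted p = 3.78e-04) and eater fell by 0.87 (adjusted p = 1.77e-04). Their summed level was 15.17 to 16.33 in mz mutant against 16.17 to 16.33 in wild type embryos and 16.18 to 16.46 in mutant against 16.35 to 16.56 in wild type larvae. Of the 9 gut markers 1, Mal-A1, was called in mutant larvae (1.37, limma adjusted p = 1.70e-04), beside 1.56% of all genes called higher. All 9 gut markers were positive there, with a median of 0.75. Their summed level was 17.73 to 17.86 in mutant, 17.64 to 17.76 in overexpressing and 16.96 to 17.24 in wild type larvae, so it was higher in mutant and overexpressing than in wild type larvae, without overlap. Of 6 tracheal markers 0 were called in either mutant against wild type, with 4 at an unadjusted p under 0.05 in mz mutant embryos and 0 in mutant larvae. The part of these cell types in the antimicrobial peptide values was not tested.

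Genes beside the antimicrobial peptide genes on the chromosome, taken in the order of assembly Release 6 plus ISO1 MT as the nearest pair with a probe on each side, were read with them. CG9733, beyond CecB, rose in mz mutant embryos by 2.53 ± 0.43 (limma adjusted p = 7.26e-04) and gave 1.33 in mutant larvae (adjusted p = 0.0858). The adjoining Cec2 gave 1.10 in mz mutant embryos (adjusted p = 0.0352) and 0.35 in mutant larvae. Around Drs, the related Drsl6 gave -0.12 and -0.21, and CG12010 fell by 0.70 in mz mutant embryos (adjusted p = 0.00216). None of the neighbours of Mtk, Def or DptB was called in mz mutant embryos or mutant larvae. Not all of them adjoin the member. On the left 5 and 8 genes lie between for DptB, and 2 and 3 for Def, whereas PIG-N adjoins Def and CG30472 adjoins Mtk.

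The gene most like Mtk, by the mean absolute difference of centred values over 22 samples among 4422 genes that had an SD of at least 0.5 times that of Mtk, was CG8299, which differed from it by 0.34 on average. It gave 1.72 in mz mutant against wild type embryos and 1.39 in mutant against wild type larvae. For Def it was CG31089 among 9060 genes, with an average difference of 0.21, and it gave 0.095 in the embryos and 0.70 in the larvae.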

How the data were processed

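Values are on the log2 scale, normalised and deposited by the authors, who, per their methods, hybridised whole-animal RNA to Agilent 4x44K arrays, took median spot intensities from scanned images and preprocessed them with limma in R, whose version is not given in the sources used here. The values of 45220 probes in 24 samples had 0 missing and were used without further scaling, and no other file was needed. Dye and sample number come from the labels. As spot signals and backgrounds were not used here, precision rests on the number of samples. The methods hybridised RNAs labelled with different dyes, so a sample is a dye channel and may share its array. Which samples did so is not given in the sources used here.

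Probes with 1 gene name (29872) were updated to current symbols, and 15348 probes without one were kept only in fits over probes. A gene was read by the probe of its highest mean over 22 samples. limma 3.58.1 (R 4.3.3) was fitted once with 6 group means to 22 samples, without overexpressing larvae 69 and 70, and contrasts were adjusted by Benjamini and Hochberg over 12799 genes or, for single probes, over all probes, with a threshold of 0.01 as in the methods of the study. Log2 fold changes are the first named group over the second. Errors beside them are limma standard errors, and SD otherwise.

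Named were all members with a probe at every probe, from each pathway list the called genes of largest change (at most 4 per comparison), some fixed pathway genes and the gene most like a called member. PGRP-LC and PGRP-SA were not analysed here. The members and lists were chosen with earlier results of these data known. On simulated data for mz mutant against wild type embryos, with 12799 genes, 53 of 100 changes of log2 1 and 91 of 100 of log2 2 were found with 3 false calls. The simulated samples scattered independently of each other. These counts therefore leave out any correlation within a number series or a shared array.

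Alternatives were all 24 samples, the number series alone or as a block, dye as a covariate, the replicate number as a block, stages fitted apart, quantile normalisation, equal medians, array weights, the mean of a gene's probes, a filter on dim probes, a threshold of 0.05 and each sample left out in turn. Values within a dye and the fits without 2 samples at once were added after seeing the data.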

Additional observations from a re-analysis of the deposited data

Results flagged for a closer look

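In 55 groups of 4 values, 1 for each probe and group, a sample stood apart by Dixon's criterion in 4, and chance gives about 1 in 20 groups. At the brighter Drs probe paternally rescued embryo 2 read 15.10, against 12.54 to 12.74 in the other 3 rescued embryos. At the second CecB probe the library labelled mz mutant embryo 1 read 7.28, below the other mz mutant embryos at 8.26 to 8.38. This library also read Manf at the wild type level. At the second DptB probe paternally rescued embryo 66 read 8.40, below 8.99 to 9.04 in the others, and at the second Mtk probe paternally rescued embryo 1 read 8.22, below 8.67 to 8.72.

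For Def the effect of the mutation differed between stages by the interaction test, with 1.05 on the log2 scale (limma adjusted p = 0.00176) at the brightest probe. The other 2 probes gave 0.33 and 0.066, neither past the threshold, and over all 24 samples the adjusted p was 0.0905. All 4 mutant larvae exceeded all wild type larvae, and the mz mutant and wild type embryos overlapped.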

How the results depend on the processing

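The counts of antimicrobial peptide genes called out of 5 were 1 in mz mutant against wild type embryos, 1 against rescued embryos, 2 in mutant against wild type larvae, 1 in the interaction, 3 in wild type larvae against wild type embryos and 0 in overexpressing larvae and in rescued embryos against wild type. With all 24 samples they were 0, 0, 1, 0 and 0 for the first 5 of these. With array weights they were 2, 2 and 4 in the 2 mz mutant comparisons and mutant larvae, and 1 in overexpressing larvae. With the number series as a block they were 3, 2 and 4. In the high series alone they were 3 in mz mutant against wild type and 4 against rescued embryos, and in the low series alone the interaction count was 0. With the mean of a gene's probes they were 2 and 2 in the mz mutant comparisons, 1 in overexpressing larvae and 0 in the interaction. With dim probes left out mz mutant against wild type embryos gave 2. Mutant larvae gave 3 with dim probes left out, the mean of a gene's probes, quantile normalisation, equal medians, the high series alone, and without wild type embryo 1 and rescued embryo 2. Wild type larvae against wild type embryos gave 2 with the mean of a gene's probes, in either series alone and with the replicate number as a block. With dye as a covariate mutant larvae gave 1, as with stages fitted apart. At a threshold of 0.05 the counts were 3, 2, 4 and 2 in the first 4 comparisons and 1 in overexpressing larvae. Without wild type embryo 1 and rescued embryo 2 both mz mutant comparisons gave 2, and likewise without the library labelled mz mutant embryo 1 and mutant larva 2. Leaving out each sample in turn gave 1 to 2 in mz mutant against wild type and 1 to 2 against rescued embryos, 1 to 3 in mutant larvae, 0 to 1 in overexpressing larvae, 1 in the interaction, 3 in wild type larvae and 0 in rescued embryos. Dropping the library labelled mz mutant embryo 1 added CecB in both mutants, and dropping wild type embryo 1 added Drs in both (adjusted p = 0.00156 in embryos and 0.00673 in larvae). With 1 sample left out, mz mutant against wild type embryos had 7 to 12 called effectors, 4 to 7 Toll and 0 to 4 Imd pathway genes, and mutant larvae 0 to 2, 0 and 0 to 2. Mtk in overexpressing larvae passed without mz mutant embryo 4 or 88 or mutant larva 4 or 66, with adjusted p of 0.00376 to 0.00981.

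The same sample numbers occur in several groups. The correlation of deviations in 19 pairs with the same number ran from -0.225 to 0.540, with a median of 0.28. The median was 0.22 for other numbers of the same series and -0.27 across series, and 0 of 15 samples correlated best with their own number. These values do not settle whether equal numbers mark paired samples, and which samples shared an array is not given in the sources used here. With the replicate number as a block the counts were 0 in mz mutant against wild type, 0 against rescued embryos, 0 in mutant larvae and 0 in the interaction, with 2.10 (adjusted p = 0.0443) for Mtk in mz mutant against wild type embryos and 1.38 (adjusted p = 0.0131) for Def in mutant larvae. The pathway and effector lists then had 0 calls in both mutants. Def in overexpressing larvae then gave -0.101.

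Of 1280 values of single members under alternatives, 1164 kept direction and side of the threshold, 28 fell short of it, 52 newly passed it and 36 changed sign, 0 of which were called in either fit. Those in overexpressing against wild type larvae were, over all 24 samples, DptB at -0.00803, Drs at -0.195 and Def at -0.145, and in the low series Def at -0.0378. In rescued against wild type embryos CecB became 0.246 with dye, 0.0808 with array weights and 0.0203 with the mean of probes, and Mtk -0.0229 with dye and -0.0429 in the low series. In the high series Def in mz mutant against rescued embryos became -0.0315 and CecB in wild type larvae against embryos -0.151. In the interaction CecB became -0.443 with array weights and -0.140 in the low series, DptB -0.0819 with the mean of probes, -0.337 in the high series and -0.199 without the library labelled mz mutant embryo 1 and mutant larva 2, and Drs -0.683 in the high series and -0.637 without wild type embryo 1 and rescued embryo 2. With each sample left out in turn the interaction ranged from -0.245 to 0.556 for CecB, -0.303 to 0.298 for DptB and -0.637 to 0.641 for Drs, overexpressing against wild type larvae from -0.228 to 0.667 for CecB and -0.0138 to 0.177 for Def, and rescued against wild type embryos from -0.103 to 0.114 for CecB. Apart from settings that use fewer samples or another threshold, the cause of these changes was not tested. The third Def probe and CecB outside the mutants lay low on the arrays, which limits what their differences show.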
